A study of Mus musculus with 35 samples.

Results

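10 genes of the JAK-STAT pathway were followed in bone marrow-derived macrophages (BMDMs), chosen by name: the inhibitors Socs1, Socs2, Socs3 and Cish, the transcription factors Stat3, Stat4, Stat5a and Stat6, and the kinases Jak2 and Jak3. Each of the 10 symbols mapped to 1 of the 47069 Ensembl gene identifiers in the series. The cells were grown from the bone marrow of C57BL/6 mice (mixed-sex cohorts) in medium conditioned by L929 cells, and were either wild-type (WT) or labelled AMPKa1-/-, a whole-animal label for loss of the catalytic subunit alpha 1 of the energy sensor AMPK. Cultures of each genotype received, for 24 h, vehicle (DMSO), the synthetic glucocorticoid dexamethasone (Dex, 100 nM), the bacterial cell wall component lipopolysaccharide (LPS, 100 ng/ml), LPS + Dex, damage-associated molecular patterns (DAMPs, 1 µg/ml, with no composition given) or DAMPs + Dex. Every group had 3 libraries except WT LPS, for which replicates 2 and 3 were used and replicate 1 was not analysed here, giving 17 WT libraries and 18 labelled AMPKa1-/-. Library totals, read from the steps that a single fragment makes in the deposited values, were 15837203 to 31955298 fragments (median 19973568).

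Cytokine receptors without kinase activity of their own bind Janus kinases (JAKs), which phosphorylate the receptor and the STAT proteins docked there. Phosphorylated STATs pair up, enter the nucleus and switch on target genes, among them the SOCS genes and Cish, whose proteins bind JAKs or receptors and close the loop. In macrophages, LPS sets off this pathway indirectly, through secreted interferon beta, IL-6, IL-10 and other cytokines, and glucocorticoids repress many of those cytokine genes. All values here are mRNA levels, so STAT phosphorylation, which carries the signal, was not measured.

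The sequence before an annotated RefSeq start is shown for Socs1, Socs3 and Jak2, the 3 tested genes whose level with LPS + Dex remained above vehicle. RefSeq promoters (GRCm38.p6) were available for 9 of the 10 genes, and the 250 bases before each start (11 starts) were searched on both strands for TTC and GAA either 3 or 4 bases apart, the core of a STAT site. Capitals mark a match. Stretches covered by an annotated exon are left out. The Socs3 stretch lies inside the span of the gene given below, since GENCODE M21 also has a Socs3 transcript that starts further upstream.
Socs1, chr16:10785537-10785786, minus strand: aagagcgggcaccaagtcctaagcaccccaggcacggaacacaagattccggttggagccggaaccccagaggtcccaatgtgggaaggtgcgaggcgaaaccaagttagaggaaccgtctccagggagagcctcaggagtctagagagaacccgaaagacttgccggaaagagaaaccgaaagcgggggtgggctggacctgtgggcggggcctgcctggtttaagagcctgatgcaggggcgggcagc
Socs3, chr11:117969452-117969616, minus strand: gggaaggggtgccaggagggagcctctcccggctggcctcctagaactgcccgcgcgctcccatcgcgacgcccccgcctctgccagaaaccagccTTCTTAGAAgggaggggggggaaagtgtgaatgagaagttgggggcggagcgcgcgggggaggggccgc
Jak2, chr19:29251553-29251802, plus strand: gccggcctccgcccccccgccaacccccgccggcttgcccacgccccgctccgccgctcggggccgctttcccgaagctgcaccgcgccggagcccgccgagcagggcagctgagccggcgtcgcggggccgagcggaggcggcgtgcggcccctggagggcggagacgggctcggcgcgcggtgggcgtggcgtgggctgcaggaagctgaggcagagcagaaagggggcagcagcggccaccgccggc
A match was found only for Socs3, whose window holds TTCTTAGAA from 154 to 146 bases before the start. Matches at this spacing occurred in 7.02% of all 32851 promoters of the same length, and matches at the 4-base spacing, found in none of the 9 genes, in 5.85%. Neither the glucocorticoid response element (GNACA and TGTNC 3 bases apart, 0.387% of promoters) nor a kappaB form (GGG and TTCC 3 bases apart, 4.65%) occurred in the windows of these genes.

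Labels were checked first. Prkaa1, which encodes AMPK alpha 1, was not lower in the vehicle libraries labelled AMPKa1-/-: its FPKM (fragments per kilobase of gene, scaled to library size) was 14.3 ± 2.19 (SD, n = 3) in WT and 15.6 ± 0.861 (SD, n = 3) in the other genotype. Its mean was lower with the AMPKa1-/- label in Dex (18.6 against 22.8), LPS (10.2 against 12.9) and LPS + Dex (11.7 against 14.3) and higher in DAMPs (14.3 against 13.8) and DAMPs + Dex (21.9 against 17.7), and the average difference did not pass (−0.04 ± 0.10 in log2(FPKM + 1), SE, limma adjusted p = 0.77). A value over the whole gene can hold reads from exons outside a deletion, so it neither supports nor contradicts the label, and the genotype is used here as labelled. Dex and LPS were checked in WT. Tsc22d3, which encodes the glucocorticoid-induced protein GILZ, stood at 667 to 736 FPKM in WT Dex against 51.7 to 54.6 in WT vehicle, and Il6 stood at 489 and 524 FPKM in WT LPS against at most 0.157 in WT vehicle. The label checks held no gene chosen for DAMPs. All 9 macrophage markers were expressed, led by Lyz2 (10343 to 35906 FPKM over the 35 libraries).

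Levels of the 10 genes in resting cells covered a wide range. In WT vehicle, Stat6, which transmits IL-4 and IL-13 signals, was the highest at 235 ± 8.36 FPKM (SD, n = 3), followed by Stat3, the factor downstream of IL-6 and IL-10, at 82.2 ± 11.4. Jak3, the partner of the common gamma chain of cytokine receptors, had 26.8 ± 1.80 FPKM, Stat5a, activated by GM-CSF and prolactin family receptors, had 12.3 ± 0.690, and Jak2, the kinase of the GM-CSF, growth hormone and interferon gamma receptors, had 8.10 ± 0.975. Socs3, an inhibitor of gp130 receptors such as that of IL-6, had 5.01 ± 2.30 FPKM. Neighbours in this order did not overlap between libraries, apart from Jak2 and Socs3, whose libraries at 7.00 to 8.86 and 3.04 to 7.54 did. Socs1, an inhibitor of interferon signalling, Socs2, which restrains growth hormone signalling, Stat4, a factor of IL-12 signalling best known from T and NK cells, and Cish, an inhibitor of STAT5 signalling, were all at 0.230 FPKM or less, which is 2 to 6 fragments for Socs1, Socs2 and Stat4 and 0 to 2 for Cish. Libraries labelled AMPKa1-/- had means from 229.7 FPKM (Stat6) down to 0.0914 (Cish).

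LPS moved most of the pathway. Of the 10 genes, 8 genes had a mean of at least 1 FPKM over all libraries and were tested with limma, Socs1 and Cish only because of their level with LPS, so the counts that follow are descriptions. Of these 8, 6 were higher and 1 was lower with LPS in WT, and 5 were higher and 2 lower in the libraries labelled AMPKa1-/-, where 55.7% and 64.3% of all tested genes were called. The median log2 change of all tested genes was −0.19 and −0.30, and changes are read against that shift. Saa3, an acute-phase protein gene, alone took 7.12% and 7.20% of the FPKM sum in the WT LPS libraries and 16.0% to 24.0% in WT LPS + Dex.

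Positions are given on GRCm38 with the GENCODE M21 annotation. Socs3 (ENSMUSG00000053113, chr11:117966079-117970047, minus strand) reached the highest level of the 10. Its FPKM was 4.47, 3.04 and 7.54 in WT vehicle and 858 and 1157 in WT LPS, and 5.80, 2.49 and 5.24 against 815, 991 and 1044 in the libraries labelled AMPKa1-/-. The groups were far apart in both genotypes, with a rise in log2(FPKM + 1) of 7.44 ± 0.46 (SE, limma adjusted p = 9.2e-14) and 7.48 ± 0.41 (adjusted p = 5.3e-15). Socs1 (ENSMUSG00000038037, chr16:10782240-10785536, minus strand) went from 0.178, 0.195 and 0.205 FPKM to 136 and 147 in WT, and from 0.454, 0.716 and 0.233 to 171, 201 and 227. The difference in log2(FPKM + 1) was 6.90 and 7.10, again with no test, since Socs1 passed the filter through the LPS groups. No fold is given on the linear scale for Socs1, since the 3 WT vehicle libraries hold 4, 4 and 5 fragments. Cish (ENSMUSG00000032578, chr9:107296026-107302784, plus strand) was close to absent in every group except LPS, where it had 20.0 and 23.6 FPKM in WT and 14.3, 20.6 and 21.3 in the libraries labelled AMPKa1-/-. In fragments, that is 943 and 1245 per WT LPS library against 0, 2 and 2 with vehicle (a difference of 4.46 in log2(FPKM + 1), given without a test because Cish passed the filter through these libraries).

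Of the kinases, Jak2 rose with LPS and Jak3 did not. Jak2 (ENSMUSG00000024789, chr19:29251828-29313080, plus strand) had 8.86, 7.00 and 8.44 FPKM in WT vehicle and 152 and 125 in WT LPS, a 17.1-fold difference of the means, and 7.17, 7.61 and 7.76 against 88.5, 123 and 92.0 (13.5-fold) in the libraries labelled AMPKa1-/-. Its log2 changes were 3.93 ± 0.24 (SE, limma adjusted p = 6.2e-14) and 3.57 ± 0.21 (adjusted p = 3.1e-14). Jak3 (ENSMUSG00000031805, chr8:71676296-71690575, plus strand) had 25.0, 28.6 and 27.0 FPKM in WT vehicle and 20.4 and 23.2 in WT LPS, a log2 difference of −0.29 ± 0.23 that did not pass (SE, limma adjusted p = 0.31). With the AMPKa1-/- label it fell from 28.0, 20.8 and 19.8 to 11.1, 18.8 and 14.4 FPKM (log2 change of −0.61 ± 0.21, SE, limma adjusted p = 0.012). That call was lost when libraries were centred on one median (−0.33, adjusted p = 0.12) and without LPS replicate 1 (adjusted p = 0.096) or vehicle replicate 1 (adjusted p = 0.083).

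The STAT genes went different ways. Stat3 (ENSMUSG00000004040, chr11:100885098-100939540, minus strand) rose from 73.3, 78.1 and 95.0 FPKM in WT vehicle to 176 and 189 in WT LPS (2.22-fold, log2 change of 1.15 ± 0.22, SE, limma adjusted p = 8.0e-05), and from 84.3, 72.9 and 88.6 to 132, 164 and 176 in the other genotype (1.92-fold, 0.93 ± 0.20, adjusted p = 0.00022). Stat6 (ENSMUSG00000002147, chr10:127642986-127660957, plus strand) fell from 231, 229 and 244 FPKM to 156 and 161 in WT and from 217, 243 and 229 to 146, 154 and 145 in the libraries labelled AMPKa1-/-. The vehicle means were 1.48-fold and 1.55-fold higher than the LPS means, with log2 changes of −0.56 ± 0.12 (SE, limma adjusted p = 0.00020) and −0.63 ± 0.11 (adjusted p = 8.8e-06), both beyond the median shift of all genes and both called under every scaling tried. Stat5a (ENSMUSG00000004043, chr11:100859351-100885169, plus strand) rose from 11.5, 12.5 and 12.8 FPKM to 19.8 and 21.5 in WT (0.71 ± 0.19, SE, limma adjusted p = 0.0024). With the AMPKa1-/- label its LPS values were spread over 10.8, 17.1 and 21.9 FPKM and the log2 difference of 0.36 ± 0.17 did not pass (adjusted p = 0.064), although it did with libraries centred on one median (0.64, adjusted p = 0.00048) or without LPS replicate 1 (0.62, adjusted p = 0.0012).

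**Figure D1:**
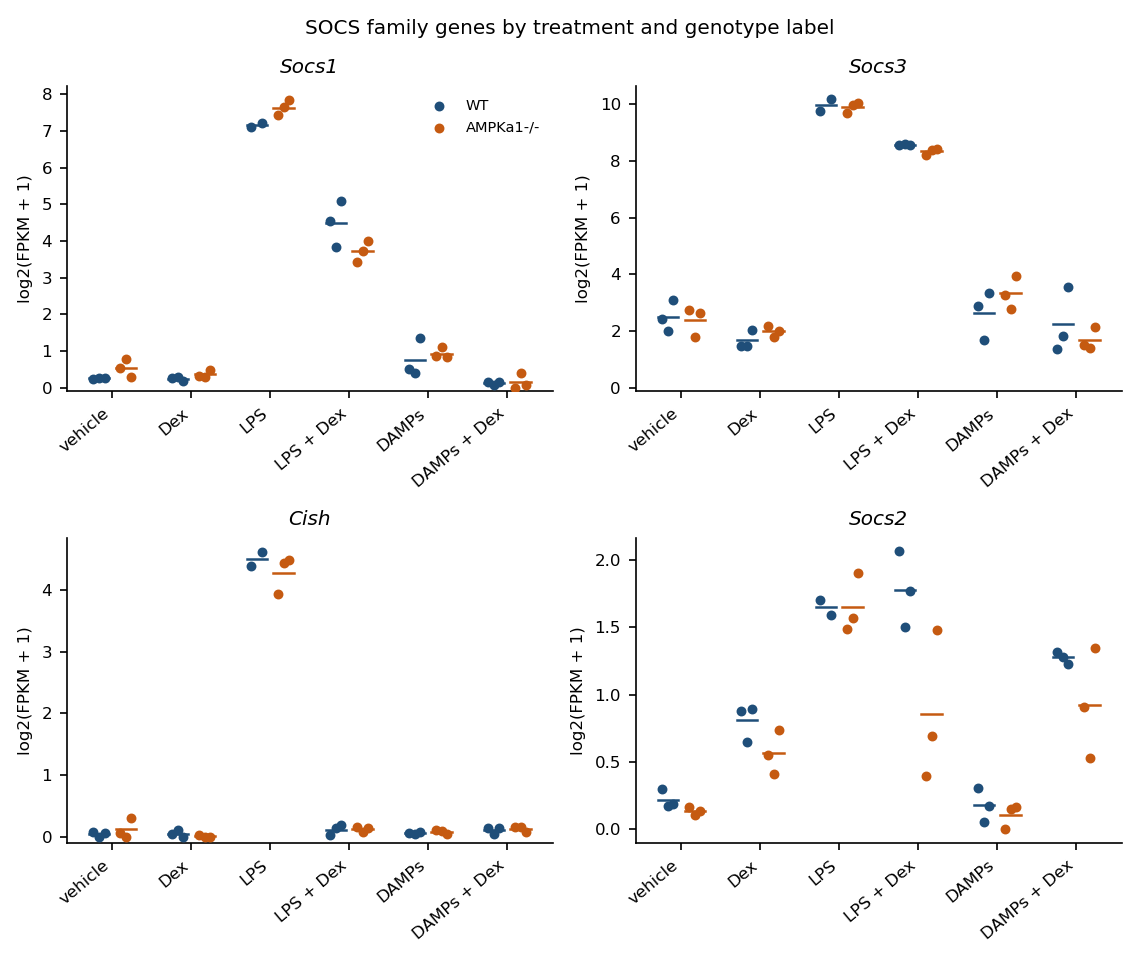
Levels of Socs1, Socs3, Cish and Socs2 as log2(FPKM + 1) in each library (points) with group means (short lines), by treatment, in WT (blue) and AMPKa1-/- labelled (orange) cells. Cish is raised in LPS alone, Socs1 and Socs3 keep part of their LPS level in LPS + Dex, and Socs2 is above vehicle in the Dex, LPS, LPS + Dex and DAMPs + Dex groups.

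With Dex added to LPS the same 6 genes were lower in both genotypes, Socs1, Socs3, Cish, Stat3, Stat5a and Jak2, against 34.1% (WT) and 37.7% of all tested genes called in either direction. Socs1 and Cish are described only, since they were tested because of their LPS level. These falls are compared with the same LPS libraries as the rises above, so the 2 comparisons are not independent. The size of the fall differed widely from gene to gene. Cish lost its LPS level almost entirely, with 0.0160, 0.0981 and 0.138 FPKM in WT LPS + Dex, which is 0.385% of the WT LPS mean and 1 to 7 fragments per library, and 0.109, 0.0491 and 0.0979 FPKM (0.456%) in the libraries labelled AMPKa1-/-. WT vehicle libraries hold 0 to 2 fragments of Cish, too few for a comparison with LPS + Dex.

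Socs1 kept an intermediate level. It had 22.1, 13.2 and 33.3 FPKM in WT LPS + Dex, 16.1% of the WT LPS mean, and 9.71, 12.1 and 15.1 FPKM in the libraries labelled AMPKa1-/-, 6.15% of their LPS mean. All of these libraries lay below every LPS library and above every vehicle library, with differences in log2(FPKM + 1) of −2.67 and −3.93 from LPS and of 4.23 and 3.17 from vehicle, given without a test for the reason stated above.

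Socs3 kept the most of the 3. Its LPS + Dex values were 372, 384 and 374 FPKM in WT, 37.4% of the WT LPS mean, and 290.0, 328 and 341 FPKM (33.7%) in the libraries labelled AMPKa1-/-. The fall was −1.40 ± 0.46 (SE, limma adjusted p = 0.018) and −1.56 ± 0.41 (adjusted p = 0.0031). The WT call was lost with no filter and a pseudocount of 0.1 (−1.40, limma adjusted p = 0.095). It was also lost without LPS replicate 3, which leaves 1 WT LPS library (−1.19). Even so, LPS + Dex stood 75.1-fold and 70.9-fold above the vehicle mean. The ratio of Socs3 to Socs1 was looked at within libraries after the levels had been seen, and is a description: log2 of (Socs3 FPKM + 1) over (Socs1 FPKM + 1) lay between 2.19 and 2.96 in the 5 LPS libraries and between 3.45 and 4.76 in the 6 LPS + Dex libraries, higher by 1.27 on average in WT and by 2.36 with the AMPKa1-/- label.

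Jak2, Stat3 and Stat5a lost similar shares of their LPS level. Jak2 had 71.0, 35.1 and 48.1 FPKM in WT LPS + Dex, 37.2% of LPS and 6.35-fold above vehicle, and 40.4, 53.8 and 33.2 FPKM in the libraries labelled AMPKa1-/-, 41.9% and 5.65-fold. Its fall was −1.46 ± 0.24 (SE, limma adjusted p = 1.5e-05) and −1.25 ± 0.21 (adjusted p = 2.5e-05). Stat3 had a mean close to vehicle but a wider spread, with 98.2, 86.8 and 57.3 FPKM in WT (44.3% of LPS) and 77.7, 88.7 and 64.4 in the other genotype (48.9%). Its log2 change against LPS was −1.20 ± 0.22 (SE, limma adjusted p = 0.00010) and −1.02 ± 0.20 (adjusted p = 0.00015), and its difference from vehicle was −0.05 with a 95% interval of −0.46 to 0.36 in WT.

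Stat5a ended below its starting level. It had 9.26, 8.84 and 6.79 FPKM in WT LPS + Dex and 6.21, 8.31 and 6.05 in the libraries labelled AMPKa1-/-, each below all vehicle libraries of its genotype. The fall against LPS was −1.23 ± 0.19 (SE, limma adjusted p = 7.6e-06) and −1.12 ± 0.17 (adjusted p = 4.2e-06). Against vehicle it was −0.52 ± 0.17 (SE, limma adjusted p = 0.011) in WT, lost with libraries centred on one median (−0.30, adjusted p = 0.096) or without LPS + Dex replicate 3 (adjusted p = 0.078), and −0.76 ± 0.17 (adjusted p = 0.00037) in the other genotype. Stat3 and Stat5a are neighbours on chromosome 11 and overlap by 72 bases on opposite strands. The sources used here do not say whether the counting used strand, and the part of shared reads in either value was not tested.

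Stat6 and Jak3 did not fall with Dex. Stat6 had 172, 157 and 122 FPKM in WT LPS + Dex and 155, 160.1 and 135 in the libraries labelled AMPKa1-/-, a log2 difference from LPS of −0.09 (95% interval −0.33 to 0.15) and 0.02 (−0.20 to 0.23), and stayed below vehicle by −0.65 and −0.61 (limma adjusted p = 8.0e-06 and 1.7e-05). Jak3 had 25.6, 27.9 and 20.0 FPKM in WT LPS + Dex, a difference from LPS of 0.15 (95% interval −0.33 to 0.63). With the AMPKa1-/- label it rose to 24.3, 28.4 and 19.6 FPKM (0.68 ± 0.21, SE, limma adjusted p = 0.010), a call lost without LPS replicate 1 (adjusted p = 0.083) or LPS + Dex replicate 2 (adjusted p = 0.063). Jak3 overlaps Insl3, a weakly expressed neighbour on the same strand (at most 7.38 FPKM). Set against vehicle, LPS + Dex gave 3 higher and 2 lower of the 8 tested genes in each genotype, beside 54.2% and 57.4% of all tested genes called. The higher genes include Socs1, which passed the filter through the LPS groups, and Cish is among the 8, so this count is a description.

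**Figure D2:**
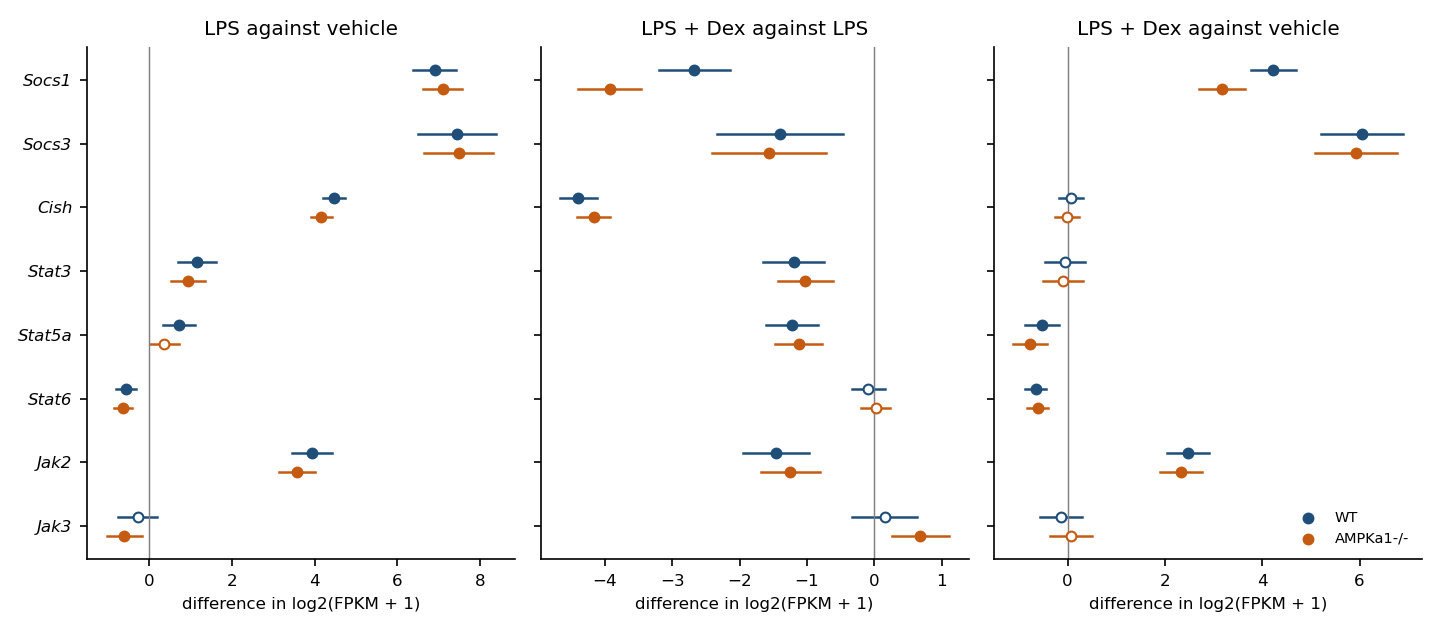
Differences in log2(FPKM + 1) (x axis) of the 8 tested genes for LPS against vehicle, LPS + Dex against LPS and LPS + Dex against vehicle, in WT (blue) and AMPKa1-/- labelled (orange) cells. Points are limma estimates, filled where the adjusted p is under 0.05, and lines are 95% confidence intervals. The x axes of the panels differ, and Socs1 and Cish were tested only because of their level in the LPS groups. Socs1, Socs3 and Jak2 are to the right of 0 in the LPS + Dex against vehicle panel and Cish and Stat3 are at 0.

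**Figure D3:**
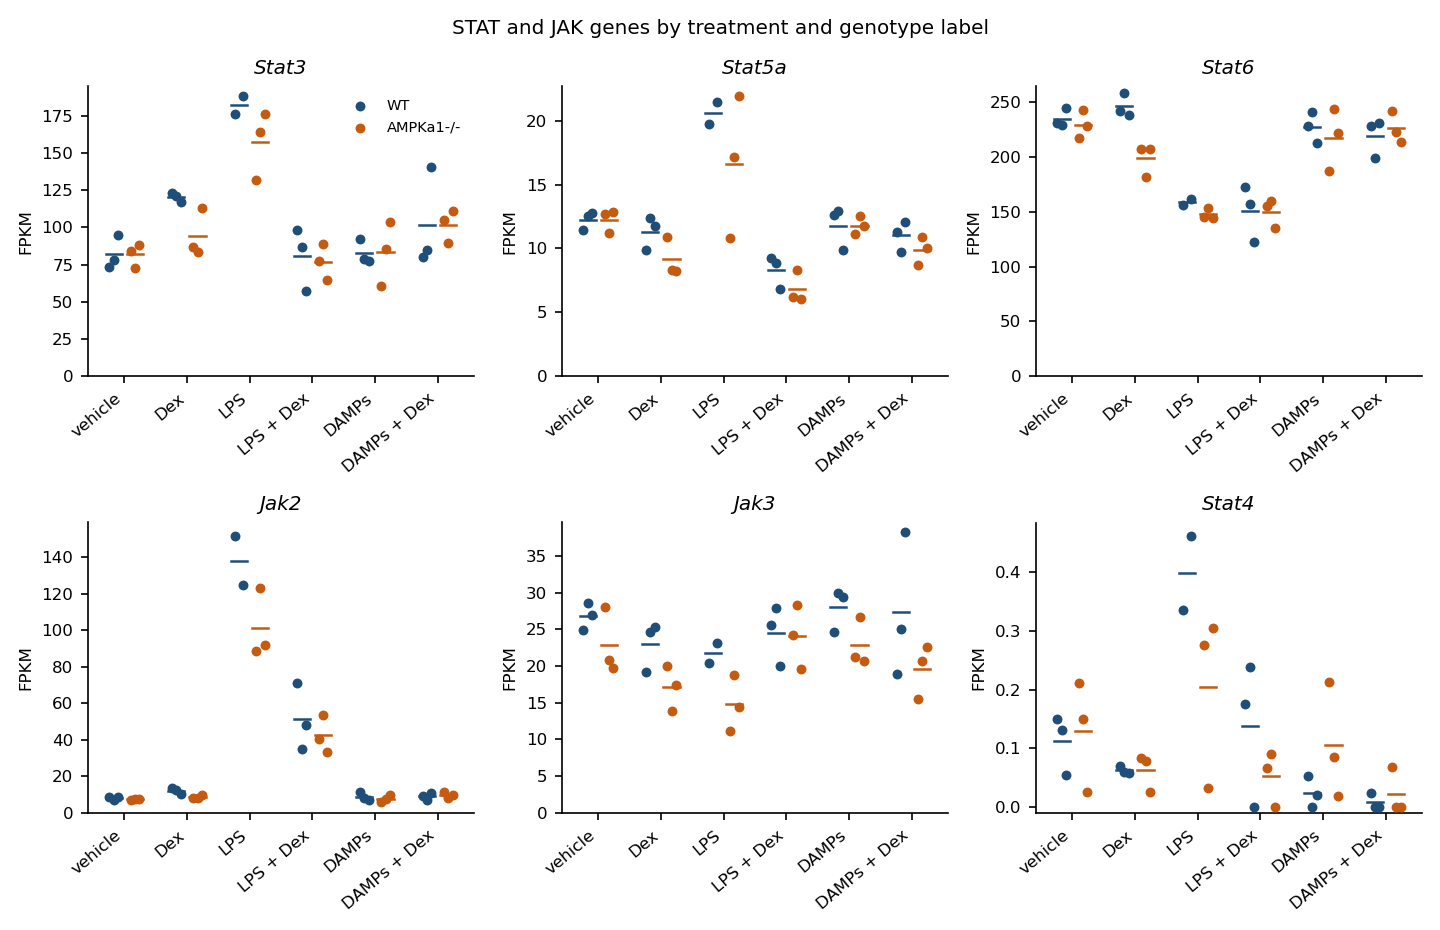
FPKM of Stat3, Stat5a, Stat6, Jak2, Jak3 and Stat4 in each library (points) with group means (short lines), by treatment and genotype label, on linear axes. Jak2 and Stat3 peak with LPS, Stat6 is lower in both LPS groups, and Stat4 is at 0.462 FPKM or less in every library.

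Whether Dex acts differently with and without LPS was tested as an interaction. Stat3, Stat5a and Jak2 had a more negative Dex effect in the presence of LPS in both genotypes, where 32% (WT) and 28.4% of all tested genes were called. The log2 interaction was −1.98 ± 0.32 and −1.42 ± 0.30 (SE) for Jak2, −1.76 ± 0.30 and −1.22 ± 0.28 for Stat3, and −1.12 ± 0.25 and −0.73 ± 0.24 for Stat5a. Socs1 and Cish were near 0 FPKM without LPS and could not fall there, so their interactions repeat the fall from LPS and are not read. In the libraries labelled AMPKa1-/-, the Stat5a call was lost without any 1 of 5 libraries (highest limma adjusted p = 0.099). It was also lost in a fit of only the groups compared (limma adjusted p = 0.093). Jak3 had a positive interaction in these libraries (1.08 ± 0.29, SE, adjusted p = 0.0060). Socs3 did not pass in WT (−0.57 ± 0.61, SE, limma adjusted p = 0.49). In the libraries labelled AMPKa1-/- its interaction of −1.17 ± 0.58 did not pass (adjusted p = 0.14). It passed with the replicate block (adjusted p = 0.044) and in a fit of only the groups compared (adjusted p = 0.012).

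Dex alone gave few calls. Of the 8 tested genes 1 was higher in WT and 0 changed in the libraries labelled AMPKa1-/-, against 30.9% and 27.9% of all tested genes called, and at an unadjusted p under 0.05 there were 2 and 1. Stat3 had 123, 121 and 117 FPKM in WT Dex, above all 3 vehicle libraries (0.56 ± 0.20, SE, limma adjusted p = 0.036), a call lost without any 1 of 5 of the 6 libraries (highest adjusted p = 0.12) and without the filter on low values (adjusted p = 0.073). Jak2 had 13.3, 12.2 and 10.5 FPKM in WT Dex, also above all vehicle libraries, and did not pass (0.52 ± 0.21, SE, limma adjusted p = 0.064), although it did in a fit of only the groups compared (adjusted p = 0.024). Socs3 had 1.83, 1.82 and 3.19 FPKM in WT Dex, which overlaps vehicle, and did not pass (−0.83 ± 0.41, SE, limma adjusted p = 0.12).

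Socs2 (ENSMUSG00000020027, chr10:95385362-95417180, minus strand) followed a pattern of its own among the 4 inhibitors. It was too weak for the main test (mean of 0.947 FPKM over all libraries), so its tests come from the fit without a filter on low values. Its FPKM was 0.230, 0.126 and 0.141 in WT vehicle, 0.840, 0.570 and 0.858 in WT Dex, 2.25 and 2.01 in WT LPS and 3.18, 1.84 and 2.40 in WT LPS + Dex. Dex and LPS libraries were thus all above vehicle, and Dex did not lower the LPS level. In WT DAMPs it had 0.235, 0.0388 and 0.130 FPKM, and 1.495, 1.42 and 1.35 with Dex added. The rises in log2(FPKM + 1) were 1.43 ± 0.22 for LPS (SE, limma adjusted p = 1.15e-05, 29.1% of genes called), 0.59 ± 0.20 for Dex (adjusted p = 0.048, 14% called) and 1.10 ± 0.20 for Dex on DAMPs (adjusted p = 0.00032, 10.7% called), and the difference for Dex on LPS was 0.13 ± 0.22 (adjusted p = 0.94, 18% called).

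In the libraries labelled AMPKa1-/-, Socs2 had 0.120, 0.0770 and 0.1003 FPKM in vehicle, 0.462, 0.332 and 0.663 in Dex, and 1.80, 1.96 and 2.73 in LPS. With LPS + Dex it had 0.312, 0.613 and 1.79 FPKM, a wide spread that lies below all 3 WT LPS + Dex libraries. The LPS rise was 1.51 ± 0.20 (SE, limma adjusted p = 7.1e-07, 31.4% called), the Dex difference 0.43 ± 0.20 (adjusted p = 0.19, 12.2% called), the Dex effect on LPS −0.79 ± 0.20 (adjusted p = 0.0044, 17.7% called) and the Dex effect on DAMPs 0.82 ± 0.20 (adjusted p = 0.0060, 10.8% called). With a pseudocount of 0.1 the Dex difference passed (1.52, limma adjusted p = 0.023), and all 3 Dex libraries lay above all vehicle libraries. Between genotypes, LPS + Dex differed by −0.92 ± 0.20 (SE, limma adjusted p = 0.025, 0.533% called), but not with a pseudocount of 0.1 (adjusted p = 0.15). The genotype difference in the Dex effect on LPS did not pass (−0.92 ± 0.30, adjusted p = 0.43). Fragment numbers were low, 2 to 6 per vehicle library and 11 to 127 per LPS + Dex library. Stat4 (ENSMUSG00000062939, chr1:51987148-52107189, plus strand) had at most 0.462 FPKM (20 fragments), and its LPS difference in WT of 0.33 in the same fit (limma adjusted p = 0.0043) was lost with a pseudocount of 0.1 (adjusted p = 0.055).

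DAMPs alone gave no call among the 8 tested genes, against 2.01% (WT) and 4.13% of all tested genes, and of the 8 the number at an unadjusted p under 0.05 was 1 and 1. Of the lists described below, DAMPs gave 5 higher and 2 lower of 22 STAT target genes in each genotype, 1 higher of 13 negative regulators in each, none of 13 ligands, and of 25 receptors none in WT and 1 higher (Il2rg) with the AMPKa1-/- label. The STAT targets that rose were Irf9, Gbp2, Isg15, Ifit1 and Mx1, and Myc and Mrc1 fell (−1.03 and −0.71 in WT, limma adjusted p = 0.015 and 0.034), named after their values were seen. Stat2, a factor of interferon signalling, rose by 0.91 in WT (limma adjusted p = 0.034) and by 1.00 with the AMPKa1-/- label (adjusted p = 0.0086), both on the log2(FPKM + 1) scale. The interferon-induced genes Usp18 (the negative regulator called), Mx1 and Ifit1 rose by 1.55, 1.60 and 1.94 in WT (limma adjusted p = 0.015, 0.024 and 0.010) and by 2.10, 1.85 and 2.55 with the AMPKa1-/- label, all on the log2(FPKM + 1) scale. The WT rises of Stat2, Usp18, Mx1 and Ifit1 rested on replicate 3, which had 45.2 FPKM of Stat2 against 19.8 and 15.9, 36.5 of Mx1 against 14.9 and 8.69, 48.3 of Ifit1 against 17.9 and 9.14 and 67.9 of Usp18 against 30.8 and 19.8. Without it none of the 4 passed with limma (Stat2 0.47, adjusted p = 0.49, Usp18 1.08, 0.23, Mx1 1.07, 0.37, and Ifit1 1.33, 0.17), while all 4 passed without either of the other libraries. Nor did Irf9, Gbp2, Isg15, Myc or Mrc1 pass without replicate 3 (0.47, 0.93, 0.99, −0.92 and −0.55, limma adjusted p = 0.16 to 0.40). Irf9, Gbp2 and Myc also lost the call without replicate 1 (limma adjusted p = 0.074, 0.078 and 0.075). Their log2 changes there were 0.596, 1.39 and −0.93, against 0.594, 1.38 and −1.03 with all libraries. The same library had the highest Socs1 of the WT DAMPs group, 1.54 FPKM (51 fragments) against 0.430 and 0.316. With Dex added to DAMPs, Socs1 had 0.106, 0.0517 and 0.103 FPKM in WT (3, 1 and 4 fragments, against 11, 7 and 51 with DAMPs), and with the AMPKa1-/- label 0, 0.311 and 0.0483 against 0.818, 1.14 and 0.771. These levels rest on few fragments and are given without a test. For Dex on DAMPs 24.3% (WT) and 25.3% of all tested genes were called, and of the 8 genes 1 and 2, with Socs1 counted in both. Socs3 fell from 8.59, 5.90 and 14.5 to 1.88, 1.67 and 3.49 FPKM in the libraries labelled AMPKa1-/- (−1.63 ± 0.41, SE, limma adjusted p = 0.0035), and had 6.36, 2.26 and 9.17 against 1.62, 2.59 and 10.8 in WT, where the difference of −0.38 did not pass (adjusted p = 0.57) but did without DAMPs + Dex replicate 3 (−1.03, adjusted p = 0.047).

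Genotype labels gave few calls among the 8 tested genes, and the difference in Socs2 is given above. Averaged over the 6 treatments, Jak3 was lower by −0.32 ± 0.09 in the libraries labelled AMPKa1-/- (SE, limma adjusted p = 0.0090), the one call among 8 tested genes, where 21.4% of all genes were called. Single treatments gave 1 call, Stat6 in Dex (207, 182 and 208 FPKM against 242, 258 and 239 in WT, −0.31 ± 0.11, SE, limma adjusted p = 0.035), which was lost under 4 of the alternatives and without any 1 of 3 libraries. The percentage of all genes called was 26.5% in Dex, but 0.432% in vehicle, 0.766% in LPS, 0.669% in LPS + Dex, 0.731% in DAMPs and 1.06% in DAMPs + Dex, so the Dex libraries of the 2 genotypes stood apart from each other as a whole. Markers of other cells moved with this comparison: all 6 tested neutrophil markers of 13 were higher in the libraries labelled AMPKa1-/- (median log2 difference of 1.65, summed level 78.3 to 116 FPKM against 19.9 to 37.2 in WT Dex) and 2 of 3 tested fibroblast markers were lower (median of −1.64). Averaged over treatments, 5 of 6 neutrophil markers were higher and 2 of 3 fibroblast markers lower. Their part in the Stat6 and Jak3 differences was not tested. None of the 5 tests of a genotype difference in a response (LPS, Dex, Dex on LPS, DAMPs and Dex on DAMPs) called any gene with limma (0% of 11354), with 514, 2441, 311, 66 and 234 genes at an unadjusted p under 0.05 and 118, 21, 75, 2 and 9 genes called without the filter.

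The rest of the pathway gives the setting. Stat2 had 73.7 and 75.7 FPKM in the 2 WT LPS libraries, against a vehicle mean of 12.6, and its WT LPS + Dex mean was 16.3% of LPS. Its log2 change was 2.49 ± 0.26 with LPS (SE, limma adjusted p = 3.5e-09) and −2.53 ± 0.26 with Dex on LPS (adjusted p = 7.4e-09). Stat5b, the close relative of Stat5a, did not pass with LPS in WT (−0.06) and fell with Dex on LPS (−0.79, limma adjusted p = 0.0021). Tyk2, a JAK of interferon and IL-12 receptors, rose with LPS from a mean of 25.8 to 38.1 FPKM in WT (0.55 ± 0.17, SE, limma adjusted p = 0.0074) and from 25.7 to 43.3 with the AMPKa1-/- label (0.71 ± 0.15, adjusted p = 0.00018), and Jak1 did not pass (−0.21 and −0.28). Jak1 and Tyk2 had 94.3% and 81.0% of their LPS mean in WT LPS + Dex, and neither passed with Dex on LPS in WT. Of the other SOCS genes, Socs6, an inhibitor linked to receptor tyrosine kinases, fell with LPS, from 30.8, 24.7 and 31.7 to 8.06 and 6.36 FPKM in WT (−1.87 ± 0.20, SE, limma adjusted p = 6.4e-09), while Socs4, Socs5 and Socs7 did not pass in WT. With the AMPKa1-/- label, Socs6 (−1.76), Socs5 (−0.54, limma adjusted p = 0.0094) and Socs7 (−0.57, adjusted p = 0.046) fell and Socs4 did not pass (−0.55, adjusted p = 0.060), where 64.3% of all tested genes were called.

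Genes named from the lists below were those with the largest called change for Dex on LPS in WT, so their falls and rises in that comparison are descriptions. Of 35 cytokine genes listed 13 were tested, and 5 of these had a mean under 1 FPKM outside the groups with LPS alone. These passed the filter through LPS. Il12a had group means of at most 0.0802 FPKM outside LPS and LPS + Dex, and passed through those treatments. Of the 13, 10 rose and 2 fell with LPS in WT (55.7% of all tested genes called). With Dex on LPS 10 fell and 0 rose (34.1% called), with a median log2 change of −2.92, against −0.03 for all genes. The filter fixed part of these directions, so nothing is read from the counts or the median. Il12b, a subunit of IL-12 and IL-23, went from 760.4 to 3.31 FPKM (means), Il12a from 320.2 to 9.15, Il6 from 507 to 3.92 and Csf2, which encodes GM-CSF, from 26.9 to 0.0875. Of 22 STAT target genes tested (24 listed), 13 rose and 5 fell with LPS in WT, and 15 fell and 1 rose with Dex on LPS, beside the same 55.7% and 34.1% of all tested genes. Cxcl9 and Ccl22 among them had a mean under 1 FPKM outside the groups with LPS alone and passed the filter through LPS, so nothing is read from these counts. Cxcl10, an interferon-induced chemokine, went from 1057 to 1.10 FPKM and Mx1, an antiviral GTPase, from 161 to 1.39, below its vehicle mean of 4.99. Ccl22, a chemokine induced by IL-4, went from 1071 to 2.38 FPKM and Ifit1, another antiviral gene, from 292 to 5.36.

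Receptors divided both ways, with 6 rising and 13 falling of 25 tested (41 listed) with Dex on LPS in WT, where 1887 of all 11354 tested genes rose and 1984 fell. Il2ra, the alpha chain of the IL-2 receptor, had 38.7 FPKM in WT LPS and 0.182 in LPS + Dex, and passed the filter through its LPS libraries. Il21r went from 28.7 to 2.38 FPKM. Ifngr1, the ligand-binding chain of the interferon gamma receptor, moved the other way: it fell from 323 to 54.9 FPKM with LPS and had 334 with LPS + Dex, and Dex alone raised it to 1287 FPKM (log2 change of 1.999 ± 0.13, SE, limma adjusted p = 1.9e-12). Il7r fell from 43.2 to 1.90 FPKM with LPS and had 17.2 with LPS + Dex. Of 13 other negative regulators, 2 rose and 3 fell with Dex on LPS in WT, a share near the 34.1% of all tested genes. Usp18, which blocks the type I interferon receptor, went from 416 to 7.02 FPKM, the phosphatase genes Ptpn2 from 25.0 to 11.1 and Ptprc from 242 to 161, and the SUMO ligase gene Pias1 from 10.99 to 18.9. In the libraries labelled AMPKa1-/- the counts with Dex on LPS were 0 higher and 11 lower for ligands, 3 and 14 for targets, 6 and 11 for receptors and 2 and 2 for negative regulators. The limit of the filter stated for ligands and targets applies here too.

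**Figure D4:**
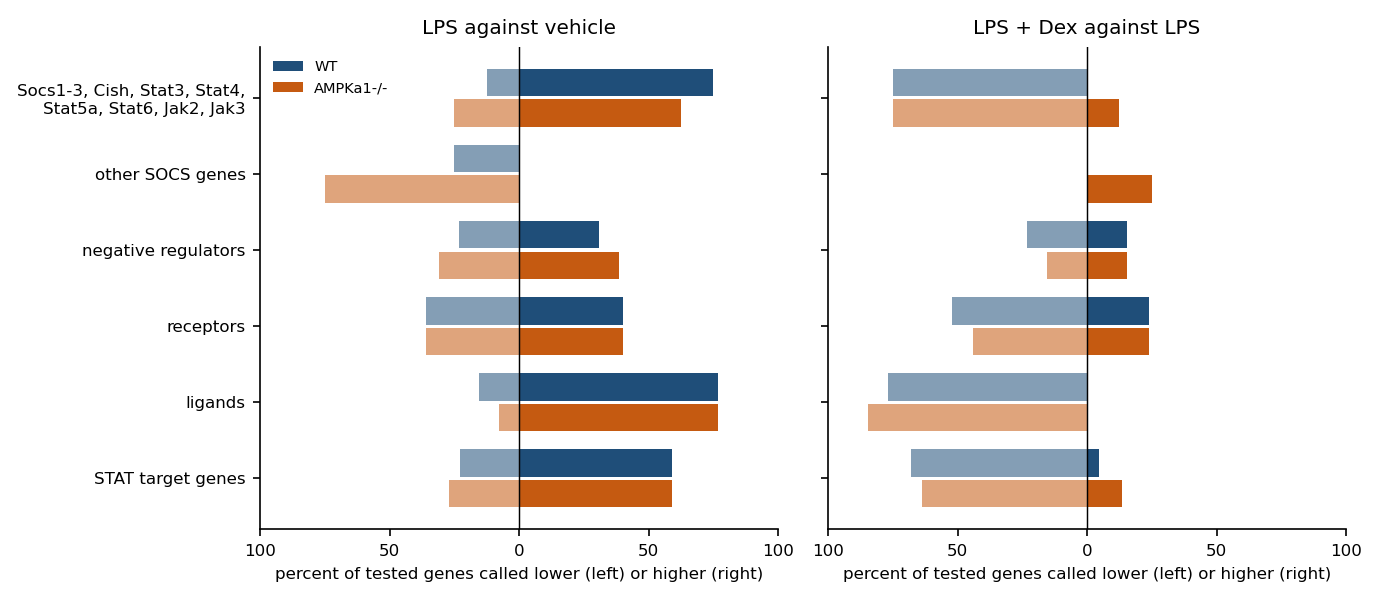
Percent of the tested genes of each list called higher (right of 0, full colour) or lower (left of 0, pale) with LPS (against vehicle) and with Dex on LPS (against LPS), in WT (blue) and AMPKa1-/- labelled (orange) cells. Ligands and STAT target genes are mostly to the right in the first panel and to the left in the second. The filter fixed this direction for Cish, the receptor gene Il2ra, 5 ligands and 2 STAT targets, which passed it through LPS alone. Socs1 and Il12a passed it through LPS and LPS + Dex.

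Genes with the most similar profile over the 12 group means were listed for each of the 8 tested genes, by Pearson's r of the mean log2(FPKM + 1), as a description. Cish was most like Lif, a cytokine of the IL-6 family, Inhba, the activin A subunit, and Hdc, the histamine-producing enzyme (r = 0.999 each). Socs3 was closest to the adenosine receptor gene Adora2a (r = 0.998), the prostaglandin E synthase gene Ptges (0.997) and Acsl5 (0.994), and Socs1 to Adamts4 (0.995), Csrnp1 and the complement gene Cfb (0.994 each). Stat3 was nearest to Traf6 (r = 0.979), Stat5a to Tcof1 (0.954), Stat6 to Zfp28 (0.997), Jak2 to Cflar (0.993) and Jak3 to Vars2 (0.898). Among the 8 genes themselves, Socs1, Socs3 and Jak2 had r of 0.964 to 0.977 with each other, and Stat6 ran opposite to Socs3 (r = −0.949). These points share the same LPS libraries.

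Markers of other cell types were examined in the same libraries, since in bulk RNA fewer cells of a type and less RNA per cell cannot be told apart. The T cell genes Cd3d, Cd3e, Cd3g and Cd8a had a median of 0 FPKM over the 35 libraries, and none of 6 NK cell, 6 B cell or 5 mast cell markers reached a mean of 1 FPKM. The sum of 7 dendritic cell markers moved with LPS and Dex as Cish did, at 38.8 and 112 FPKM in WT LPS and 1.09 to 1.80 in WT LPS + Dex. Nearly all of the LPS sum was Ccr7, which activated macrophages also express, with a median of 73.7 in WT LPS and 0.861 in WT LPS + Dex. The rest of the list had at most 1.565 FPKM in any library. The sum of 13 neutrophil markers was 127 and 162 FPKM in WT LPS and 513 to 1201 in WT LPS + Dex. S100a8, which reached the highest level of the list, had a median of 18.8 with LPS and 617 with LPS + Dex, most of the latter sum. Of 6 tested neutrophil markers, 1 was higher and 1 lower with Dex on LPS in WT (median log2 change of −0.05, against −0.03 for all genes). Camp reached 133, Mmp8 118, S100a9 16.4, Ngp 7.56 and Ltf 6.198 FPKM in single libraries, while Ly6g, Mpo, Elane, Prtn3, Ctsg, Cxcr2 and Retnlg had 0.475 FPKM or less in every library. Of 8 T cell markers 3 reached a mean of 1 FPKM: Cd4 (at most 34.95 in a library), Cd247 (30.7) and Cd28 (24.5). The T cell sum was 30.0 to 33.0 FPKM in WT vehicle, 8.87 to 17.8 in WT Dex, 9.40 and 16.4 in WT LPS and 2.38 to 4.88 in WT LPS + Dex. Of 6 fibroblast markers 3 reached a mean of 1 FPKM, with a summed level of at most 24.7. The part of these transcripts in the SOCS, STAT and JAK values was not tested.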

How the data were processed

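RNA was taken from bone marrow-derived macrophages, and 35 libraries in 12 groups of genotype and treatment were used. The authors deposited FPKM per Ensembl gene. Per the submitters' processing notes, reads were aligned with TopHat2 (2.0.12) and Bowtie2 (2.2.3) to GRCm38 (mm10) and counted with HTSeq (0.6.1). The authors' notes also list DESeq2, with no version. The sources used here name neither the annotation release nor the strand setting. The study's N values refer to data or cultures of individual mice, except where the paper says otherwise.

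Of the 47069 identifiers, 46488 carried a GENCODE M21 symbol. log2(FPKM + 1) was fitted with limma 3.58.1 (R 4.3.3, trended variance, all 12 groups) for 11354 genes with a mean of at least 1 FPKM, 2-sided, with Benjamini-Hochberg adjustment over all of them at 0.05. Fold changes of weak genes are understated on this scale. The fitting script was tested on simulated data. Totals were read from FPKM steps; among genes under 10 fragments, 55.3% to 63.9% of the values per library were whole to within 0.001, so no count test was run.

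The 10 genes and the gene lists were chosen with earlier results of these data known. Named genes were the 10, the other JAK, STAT and SOCS genes, up to 4 genes per list with the largest called change for LPS + Dex against LPS in WT, label checks and the 3 most similar profiles per gene, of which some are printed. One gene is not reported here. The ratio of Socs3 to Socs1 was chosen after seeing the data and is given without a test. Alternatives were a pseudocount of 0.1, no filter (27414 genes), a minimum mean of 5 FPKM, centring, quantile normalization, only the groups compared, a replicate block, each library left out and, chosen after seeing the data, no filter with a pseudocount of 0.1 and each WT DAMPs library left out for the genes named with DAMPs.

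Deviations of same-numbered libraries from their group means correlated above 0.1 in 29 of 45 AMPKa1-/- pairs and 25 of 40 WT pairs. With the AMPKa1-/- label, every pair of vehicle with Dex, LPS and LPS + Dex and of LPS with LPS + Dex did so. Others did not, such as Dex with LPS + Dex (0.211, −0.229 and −0.054) and DAMPs with DAMPs + Dex (−0.494, 0.125 and −0.165). In WT every pair did so for Dex with LPS + Dex, Dex with DAMPs and LPS + Dex with DAMPs. Vehicle with Dex or LPS + Dex did not, and WT LPS has only 2 libraries. The main fit held no replicate term, so its p-values treat the libraries as unpaired. The replicate block is one of the alternatives. Python 3.11.15, numpy 2.4.6, pandas 2.3.3, scipy 1.17.1 and matplotlib 3.10.9 were used.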

Additional observations from a re-analysis of the deposited data

How the results depend on the processing

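Of 439 alternative values for 67 called results of the 10 genes, 419 kept the call, and no direction reversed in any alternative or left-out library. The 439 hold no fit with a library left out. Of 1768 left-out values, for called and uncalled results together, 25 lost a call and 9 gained one. The 67 results include calls of Socs1 and Cish, which passed the filter through LPS, so the share kept is a description only. With Dex alone in WT, the 1 call became 3 with the replicate block, 2 with only the groups compared and 0 to 1 with a library left out. In the AMPKa1-/- libraries, the count of 0 was 1 with no filter and a pseudocount of 0.1, and 0 to 1 with a library left out. For DAMPs + Dex against DAMPs in WT, the 1 call became 0 with centring, quantile normalization or only the groups compared, 2 with no filter and a pseudocount of 0.1, and 0 to 1 with a library left out. In the AMPKa1-/- libraries, the 2 calls became 1 with quantile normalization and 1 to 2 with a library left out. For the average genotype difference, the 1 call became 2 without a filter at either pseudocount and 1 to 2 with a library left out. For single treatments, the 1 call became 0 with centring, only the groups compared, or no filter and a pseudocount of 0.1, and 0 to 2 with a library left out. Without a filter, the counts for Dex and for DAMPs + Dex in WT stayed at 1, but the call was of Socs2, and Stat3 and Socs1 were lost. The causes were not tested. The replicate block changed 3 calls of single genes, Socs3 (adjusted p = 0.040) and Jak2 (adjusted p = 0.044) with Dex alone in WT and Socs3 for the LPS by Dex interaction in the AMPKa1-/- libraries (adjusted p = 0.044, limma). WT LPS had 2 libraries, so leaving 1 out assumes that the other varies like the rest. Low fragment numbers limit Socs2, Stat4, and Socs1 and Cish outside LPS.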
